A study of Homo sapiens with 12 samples.

Results

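The 10 genes described here make fatty acids in the cytosol and then lengthen and desaturate them: ACLY, ACSS2, ACACA, FASN, SCD, FADS1, FADS2, ELOVL5, ELOVL6 and SREBF1. They were chosen by name as enzymes and the main regulator of the pathway, and all 10 were found among the 57133 gene names of the count files. The RNA was from MCF10-A, an established line of human breast epithelium that does not form tumours, grown in medium with horse serum, EGF, insulin, hydrocortisone and cholera toxin. The cells carried a transgene under a doxycycline-inducible promoter and all received 50 ng/ml doxycycline. The transgene encoded the fluorescent protein mVenus alone, mVenus-p16 or mVenus-p21. Both p16 and p21 inhibit cyclin-dependent kinases and stop the cell cycle. Cells were harvested after 5 days. Torin2, an inhibitor of the kinase mTOR, was given at 100 nM to mVenus-p16 cells only, from 24 hours after doxycycline, and the other mVenus-p16 cells received its solvent DMSO. Below, the groups are named mVenus, p16, p16/Torin2 and p21. Each held 3 libraries, named as biological replicates in the series description. The labels do not say whether each line is a single clone.

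In this pathway, ACLY and ACSS2 supply acetyl-CoA from citrate and from acetate. ACACA, an acetyl-CoA carboxylase, turns it into malonyl-CoA, and FASN builds the saturated fatty acid palmitate. ELOVL6 lengthens palmitate, SCD puts the first double bond into saturated chains, and FADS2, ELOVL5 and FADS1 act in turn on polyunsaturated chains. SREBF1 encodes SREBP1, a membrane-bound transcription factor that is released by cleavage and switches on most genes of the pathway. Insulin raises SREBP1 activity through mTOR complex 1 in several tissues, and adipose tissue and the milk-making epithelium of the breast are known for high expression of these enzymes.

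Levels are in CPM, counts scaled to the total of assigned counts in a library, with the mean ± SD of each group of 3. Log2 fold changes ± SE come from the edgeR quasi-likelihood test, which adds a TMM scaling between libraries. A gene is said to have risen or fallen when its Benjamini-Hochberg adjusted p over the 14504 genes tested was under 0.05. Libraries held 13168749 to 18321114 counts, and the 10 genes had at least 16 counts in every library. Replicates differed by more than sampling noise, with a chi-square per degree of freedom of 1.65 to 6.40. Mitochondrially encoded transcripts took 3.85% to 3.91% of counts in mVenus, 6.33% to 6.91% in p16, 5.66% to 6.71% in p16/Torin2 and 6.08% to 6.98% in p21. This moved with the groups, and its part in the results was not tested. CDKN2A, the endogenous gene of p16 at a locus known to be deleted in this line, had 0 counts in every group. This held also in p16 and p16/Torin2, whose cells carried the mVenus-p16 transgene. The counts thus give no check of the p16 label. Why no RNA of the mVenus-p16 transgene was counted to CDKN2A was not tested. CDKN1A, the gene of p21, had 742 ± 11.7 CPM in mVenus, 552 ± 29.9 in p16, 258 ± 15.7 in p16/Torin2 and 882 ± 11.2 in p21. Whether the p21 value includes RNA of the mVenus-p21 transgene was not tested. In bulk RNA, fewer cells that express a gene and less of its RNA per cell cannot be told apart.

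In outline, 5 genes were about 2- to 3-fold higher in p16 than in mVenus: ACSS2, FASN, ELOVL6, SREBF1 and SCD. With Torin2 the first 4 were near their mVenus levels, while SCD was far below its own. The p21 cells did not share the rise of FASN, ACSS2, ELOVL6 and SCD. Both enzymes of polyunsaturated fatty acid desaturation were lower than mVenus in all 3 other groups, but not alike: FADS1 was lowest in p16 and FADS2 was lowest in p16/Torin2. Summed over the 10 genes, the level was 2276 ± 25.1 CPM in mVenus, 3697 ± 156 in p16, 1527 ± 30.6 in p16/Torin2 and 1560 ± 38.8 in p21. FASN alone made up the largest share of these sums in all 4 groups.

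**Figure D1:**
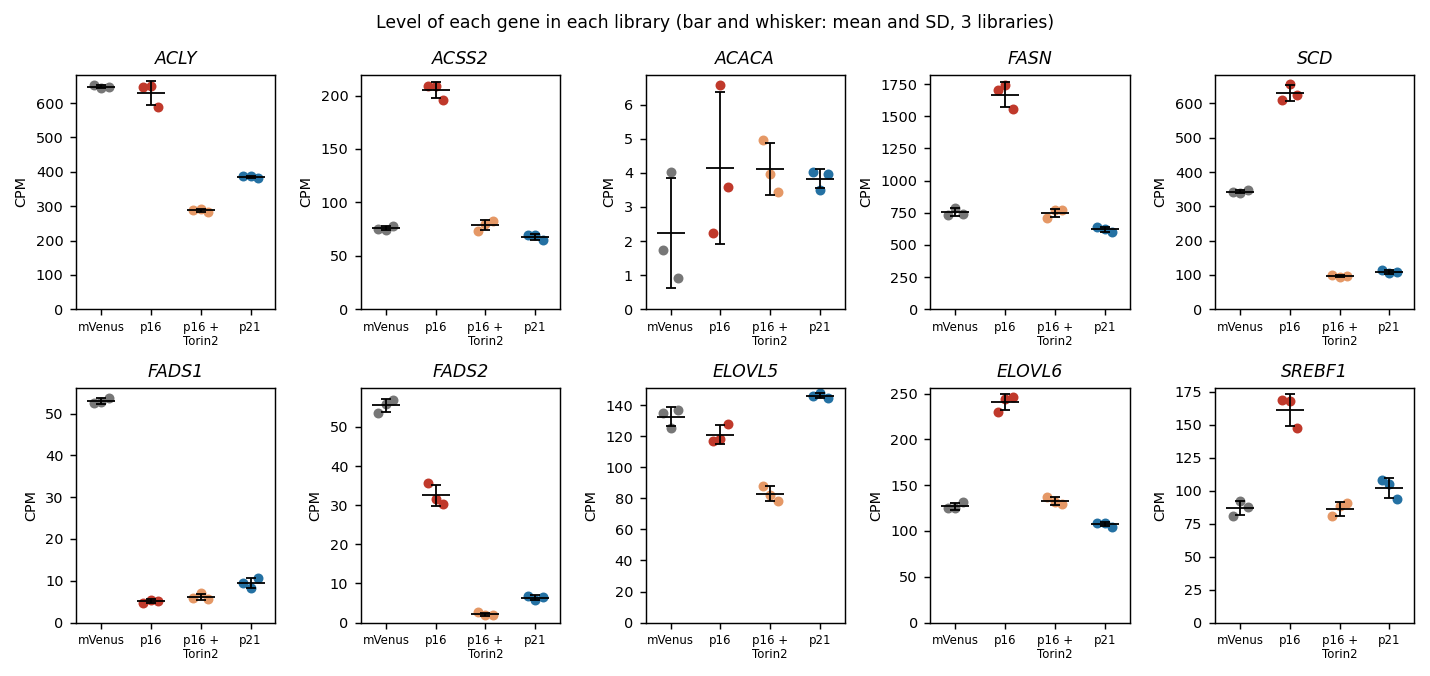
Level of each of the 10 genes in CPM (vertical axis, starting at 0) in every library of the 4 groups (points), with the group mean and SD (bar and whisker, 3 libraries). FASN, ACSS2, ELOVL6, SREBF1 and SCD are highest in p16, FADS1 and FADS2 are highest in mVenus, and the ACACA points are spread and low.

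Promoter bases are shown for 4 of the genes as examples of genes with unlike levels across the groups. ACSS2 and ELOVL6 rose in p16 and were near mVenus with Torin2. SCD rose in p16 but was far below mVenus with Torin2 and in p21. ACLY was not called in p16 and was lower than mVenus in the other 2 groups. The bases come from the RefSeq promoter table on GRCh38.p14, which had an entry for 9 of the 10 genes, all but FASN. Each line holds upstream bases that lie in no annotated GENCODE 29 exon, read 5′ to 3′ on the gene's strand. SCD is chr10:100346983-100347123 on the plus strand, ACLY is chr17:41919023-41919201 on the minus strand, ACSS2 is chr20:34876362-34876434 on the plus strand and ELOVL6 is chr4:110198677-110198841 on the minus strand. Capitals mark matches to CCAAT or its reverse complement ATTGG, the box bound by NF-Y, and to GGGCGG or its reverse complement CCGCCC, the box bound by Sp1.
SCD: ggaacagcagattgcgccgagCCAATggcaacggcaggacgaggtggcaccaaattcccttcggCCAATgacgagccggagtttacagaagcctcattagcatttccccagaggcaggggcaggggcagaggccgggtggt
ACLY: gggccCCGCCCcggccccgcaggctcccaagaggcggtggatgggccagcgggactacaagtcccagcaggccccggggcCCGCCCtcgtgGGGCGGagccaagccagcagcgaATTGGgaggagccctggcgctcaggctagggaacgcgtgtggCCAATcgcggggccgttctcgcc
ACSS2: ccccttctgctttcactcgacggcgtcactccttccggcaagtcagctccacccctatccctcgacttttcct
ELOVL6: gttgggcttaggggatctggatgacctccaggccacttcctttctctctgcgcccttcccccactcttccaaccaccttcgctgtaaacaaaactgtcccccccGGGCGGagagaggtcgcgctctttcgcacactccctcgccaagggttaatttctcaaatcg
The SCD stretch held 2 NF-Y boxes and 0 Sp1 boxes, and the ACLY stretch held 2 NF-Y boxes and 3 Sp1 boxes. ACSS2 had no match to either box in its stretch of 73 bases, and ELOVL6 had 1 Sp1 box. The full windows of 300 bases, of which these stretches are parts, held 2 NF-Y and 2 Sp1 boxes for SCD, 2 and 4 for ACLY, 0 and 3 for ACSS2 and 0 and 1 for ELOVL6. These are matches of letters and not binding sites. Over such windows (250 bases before and 50 after a start), 34.6% of 35116 windows of all genes had an NF-Y box and 45% an Sp1 box. Of the 14 windows listed for the 9 genes, 8 had an NF-Y box and 11 an Sp1 box. A sterol regulatory element written as TCACNCCAC, on either strand, was in 0 of these 14 windows and in 1.13% of all windows. The E-box CACGTG was in 1 of the 14 and in 7.26% of all. None of the matches in the printed stretches overlaps another.

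The genes that supply acetyl-CoA moved apart from each other. ACLY (chromosome 17, 41866908 to 41930542, GRCh38, minus strand), which splits citrate into acetyl-CoA and oxaloacetate, had 654, 643 and 647 CPM in mVenus and 648, 651 and 588 in p16. With Torin2 it had 288, 291 and 284 CPM, and in p21 388, 387 and 381. The mVenus and p16 libraries overlapped, and those of the other 2 groups were all lower and apart from each other. The test did not call ACLY between p16 and mVenus (log2 fold change 0.06 ± 0.04, 95% interval -0.01 to 0.14, edgeR adjusted p = 0.125). Without the third p16 library the call was made, at a log2 fold change of 0.11 (adjusted p = 0.00352). ACLY fell with Torin2 (-1.17 ± 0.04, adjusted p = 4.31e-16) and was lower in p21 than in mVenus (-0.68 ± 0.04, adjusted p = 1.65e-12).

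ACSS2 (chromosome 20, 34872146 to 34927962, plus strand), the cytosolic and nuclear acetyl-CoA synthetase that uses acetate, had 75.4, 74.2 and 77.8 CPM in mVenus. It had 209.1, 209.0 and 196.0 CPM in p16, all far above. In p16/Torin2 the values were 73.4, 80.1 and 82.3 CPM, and in p21 69.1, 69.3 and 64.4. The Torin2 libraries thus lay around those of mVenus, and the p21 libraries lay just below them. ACSS2 rose 2.91-fold in p16 (log2 fold change 1.54 ± 0.05, edgeR adjusted p = 1.2e-16) and fell 2.68-fold when Torin2 was added (-1.42 ± 0.05, adjusted p = 8.19e-16). Between p21 and mVenus it was not called (-0.10 ± 0.05, interval -0.20 to 0.01, adjusted p = 0.113). Per length, in TPM, the ratio of ACSS2 to ACLY was 0.113 ± 0.00278 in mVenus, 0.316 ± 0.00637 in p16, 0.265 ± 0.0171 in p16/Torin2 and 0.170 ± 0.00552 in p21. The groups did not overlap in this ratio. It was above mVenus in all 9 other libraries, by a higher ACSS2 level in p16 and by a lower ACLY level in the other 2 groups.

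FASN (chromosome 17, 82078333 to 82098332, minus strand), the multi-domain synthase of palmitate, was the most abundant of the 10 per length, with a mean of 359 TPM over the 12 libraries. Its levels were 732, 789 and 737 CPM in mVenus and 1702, 1745 and 1557 in p16. The Torin2 libraries had 712, 769 and 768 CPM, and in p21 642, 622 and 603. Every p16 library was above every library of the other groups, mVenus and Torin2 overlapped, and p21 was lowest. FASN rose 2.39-fold in p16 (log2 fold change 1.26 ± 0.04, edgeR adjusted p = 1.25e-15) and fell 2.29-fold with Torin2 (-1.19 ± 0.04, adjusted p = 5.65e-15). The fall in p21 against mVenus was small (-0.20 ± 0.04, adjusted p = 0.000553). Between p16/Torin2 and mVenus the difference was not called (0.06 ± 0.04, interval -0.03 to 0.15, adjusted p = 0.224). It was called at 0.09 with no low-count filter (adjusted p = 0.0378) and with only these 2 groups in the fit (adjusted p = 0.0407).

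ACACA (chromosome 17, 37084988 to 37406818, minus strand), the carboxylase that commits acetyl-CoA to fatty acids, was the least abundant of the 10 at a mean of 0.976 TPM. It had 1.75, 4.02 and 0.911 CPM in mVenus and 2.23, 6.59 and 3.60 in p16. With Torin2 the values were 4.95, 3.97 and 3.45 CPM, and in p21 4.03, 3.504 and 3.96. All groups overlapped with mVenus, whose libraries differed among themselves by over 4-fold. The test called ACACA higher in p16 than in mVenus (log2 fold change 1.07 ± 0.37, edgeR adjusted p = 0.0163) and in p21 (0.93 ± 0.38, adjusted p = 0.0422). Without mVenus replicate 1, mVenus replicate 3 or p16 replicate 2 the p16 call was lost (adjusted p = 0.0707, 0.110 and 0.207), and without the last the log2 fold change was 0.57. For p21, the call was lost without mVenus replicate 1 or 3, Torin2 replicate 2 or any 1 of the 3 p21 libraries (adjusted p = 0.0517 to 0.225), and without mVenus replicate 3 the log2 fold change was 0.54.

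The genes around ACACA were low as well. ACACA lies in a run of 58 consecutive protein-coding genes on chromosome 17, from TAF15 (start 35713791) to C17orf98 (end 38841455), all with a mean under 10 CPM. Of its 20 nearest protein-coding neighbours (10 on each side) 18 were under 1 CPM, against 4 to 11 of 20 for the other 9 genes and 8489 of 19940 protein-coding genes in all. The gene just before the run, AP2B1, had 531 CPM and the gene just after it, RPL23, had 529. Several genes inside it are needed by most cells. TAF15 had 0.0053 CPM and AATF 0.0113, and PSMB3, a core proteasome subunit, had 3.75 TPM against 115 to 380 TPM for the other 6 constitutive beta subunits. Why the run is low was not tested, and the levels and folds of ACACA cannot be taken as those of the cells' transcript.

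**Figure D2:**
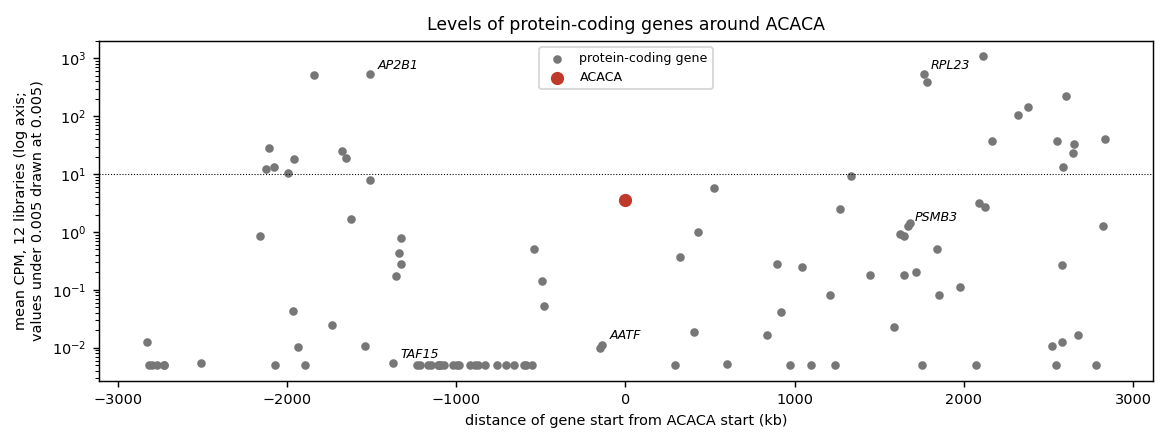
Mean level over 12 libraries (vertical log axis in CPM, values under 0.005 drawn at 0.005) of 108 protein-coding genes against the distance of their start from that of ACACA in kb. The 58 genes between AP2B1 and RPL23 all lie under the dotted line at 10 CPM, with ACACA (red) among the highest of them.

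Of the elongases, ELOVL6 (chromosome 4, 110045846 to 110199199, minus strand), which lengthens saturated and monounsaturated chains, followed the pattern of FASN. It had 125, 125 and 131 CPM in mVenus and 230.3, 244.5 and 246.1 in p16. The p16/Torin2 libraries had 137, 131 and 129 CPM, and in p21 109, 109 and 105. The p16 libraries were the highest and the p21 libraries the lowest, with no overlap, and Torin2 and mVenus shared part of their range. ELOVL6 rose 2.04-fold in p16 (log2 fold change 1.03 ± 0.04, edgeR adjusted p = 3.89e-15), fell with Torin2 (-0.90 ± 0.04, adjusted p = 6.11e-14) and was slightly lower in p21 than in mVenus (-0.17 ± 0.04, adjusted p = 0.00122).

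ELOVL5 (chromosome 6, 53267398 to 53349179, minus strand), which lengthens polyunsaturated chains, had the narrowest range of group means, 1.76-fold. It had 135, 125 and 137 CPM in mVenus, 117, 118 and 128 in p16, 88.2, 82.4 and 78.6 in p16/Torin2 and 146, 148 and 145 in p21. The p21 libraries were all above the rest and the Torin2 libraries all below. Between p16 and mVenus ELOVL5 was not called (log2 fold change -0.02 ± 0.05, interval -0.12 to 0.07, edgeR adjusted p = 0.661). It fell with Torin2 (-0.58 ± 0.05, adjusted p = 2.24e-09) and rose in p21 against mVenus (0.21 ± 0.05, adjusted p = 0.000629). The TPM ratio of ELOVL5 to ELOVL6 was 2.0 ± 0.0759 in mVenus, 0.964 ± 0.0361 in p16, 1.2 ± 0.0325 in p16/Torin2 and 2.6 ± 0.0368 in p21. None of the 4 groups overlapped, and the ratio was under 1 in p16 only and highest in p21.

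SCD (chromosome 10, 100347124 to 100364834, plus strand), the delta-9 desaturase that makes oleate and palmitoleate, differed between groups more than the synthesis enzymes did. It had 342, 339.6 and 347 CPM in mVenus and 611, 656 and 625 in p16. Levels with Torin2 were 98.7, 93.4 and 96.1 CPM, and in p21 115, 105 and 107. All 4 groups were apart, with p16 on top and both Torin2 and p21 under the mVenus libraries. SCD rose 1.98-fold in p16 (log2 fold change 0.99 ± 0.04, edgeR adjusted p = 2.33e-15). It fell 6.75-fold with Torin2 (-2.76 ± 0.04, adjusted p = 1.38e-20), a larger absolute log2 change than in 98.7% of the genes tested. In p21 it was 2.99-fold lower than in mVenus (-1.58 ± 0.04, adjusted p = 7.15e-18) and 5.94-fold lower than in p16 (-2.57 ± 0.04, adjusted p = 6.68e-21).

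The TPM ratio of SCD to FASN was 0.796 ± 0.0389 in mVenus, 0.662 ± 0.0372 in p16, 0.224 ± 0.0157 in p16/Torin2 and 0.306 ± 0.0100 in p21. In p16 both genes were higher than in mVenus, and the ratio went from 0.751 to 0.821 in the mVenus libraries to 0.627 to 0.701 in those of p16. In the 2 groups where SCD was low, FASN was near or slightly under its mVenus level, and the ratio was at most 0.313 in those 6 libraries.

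FADS1 and FADS2 lie beside each other on chromosome 11, on opposite strands, and encode the delta-5 and delta-6 desaturases of polyunsaturated fatty acids. FADS1 (61799625 to 61829318, minus strand) had 52.6, 52.7 and 53.7 CPM in mVenus. It had 4.64, 5.50 and 5.17 CPM in p16, 5.93, 6.99 and 5.66 in p16/Torin2 and 9.38, 8.24 and 10.6 in p21. All 9 libraries of the other groups were far below mVenus, with p16 lowest. FADS1 was 9.65-fold lower in p16 (log2 fold change -3.27 ± 0.09, edgeR adjusted p = 1.45e-17), a larger absolute log2 change than in 98.1% of the genes tested. It was 5.37-fold lower in p21 than in mVenus (-2.43 ± 0.08, adjusted p = 3.91e-16). Torin2 did not change it to a called extent (0.24 ± 0.12, interval -0.02 to 0.50, adjusted p = 0.09997), although the 3 libraries of each group did not overlap.

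FADS2 (61792980 to 61867354, plus strand) had 53.7, 56.0 and 57.0 CPM in mVenus and 35.6, 31.5 and 30.4 in p16. In p16/Torin2 it had 2.61, 1.99 and 1.89 CPM, from 29 counts or more per library, and in p21 6.89, 5.72 and 6.47. The 4 groups were all apart in the order mVenus, p16, p21 and p16/Torin2. FADS2 was 1.58-fold lower in p16 than in mVenus (log2 fold change -0.66 ± 0.06, edgeR adjusted p = 1.34e-08) and 8.34-fold lower in p21 (-3.06 ± 0.08, adjusted p = 3.38e-17). With Torin2 it fell a further 15.5-fold from p16 (-3.95 ± 0.11, adjusted p = 9.01e-17), a larger absolute log2 change than in 99.6% of the genes tested. Group means of FADS2 spanned 25.7-fold, the widest range of the 10, followed by FADS1 at 10.4-fold.

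The ratio of FADS1 to FADS2 in TPM was 1.03 ± 0.0232 in mVenus, 0.171 ± 0.0264 in p16, 3.16 ± 0.672 in p16/Torin2 and 1.59 ± 0.149 in p21. The ratio was 0.188 or less in every p16 library and 1.47 or more in every Torin2 and p21 library, with mVenus between. The authors' counting did not use strand, and 5.57% of the exonic bases of FADS1 and 4.89% of those of FADS2 are shared with another gene, largely with each other.

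**Figure D3:**
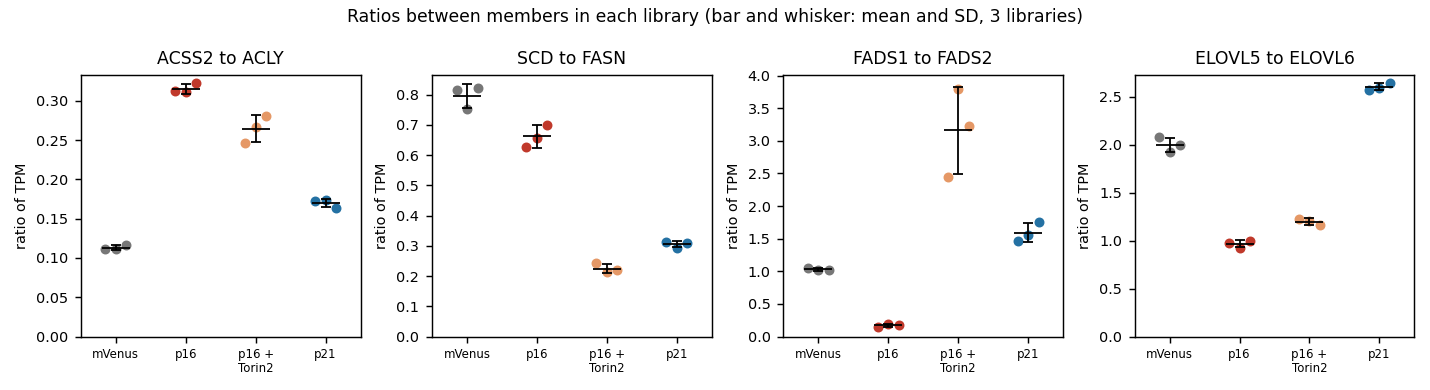
Ratio of the TPM of ACSS2 to ACLY, SCD to FASN, FADS1 to FADS2 and ELOVL5 to ELOVL6 (vertical axes, starting at 0) in each library of the 4 groups (points), with group mean and SD (bar and whisker). FADS1 to FADS2 runs from 0.171 in p16 to 3.16 with Torin2, and SCD to FASN is lowest with Torin2 and in p21.

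SREBF1 (chromosome 17, 17810399 to 17837002, minus strand), the regulator, had 80.9, 92.0 and 87.7 CPM in mVenus and 169, 168 and 148 in p16. In p16/Torin2 it had 80.5, 88.3 and 90.6 CPM, and in p21 108, 105 and 93.7. The p16 libraries were all highest, p21 stood between, and Torin2 and mVenus overlapped. It rose 2.01-fold in p16 (log2 fold change 1.01 ± 0.06, edgeR adjusted p = 1.33e-11), fell with Torin2 (-0.94 ± 0.06, adjusted p = 6.03e-11) and was higher in p21 than in mVenus (0.31 ± 0.06, adjusted p = 0.000359). These are transcript levels of the whole gene. They do not tell its isoforms apart and say nothing of the cleaved protein, and 6.92% of its exonic bases are shared with RAI1.

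In p16 against mVenus, none of SREBF2, SCAP, INSIG1 and INSIG2, which act with SREBF1, rose with it. SREBF2, which encodes the related factor SREBP2 of cholesterol synthesis, had 422 ± 9.89 CPM in mVenus, 404 ± 19.4 in p16, 225 ± 5.24 in p16/Torin2 and 339.6 ± 4.80 in p21. It was not called in p16 (log2 fold change 0.04 ± 0.04) and fell with Torin2 (-0.89 ± 0.04). INSIG1, a target of SREBPs that holds them in the endoplasmic reticulum, fell from 71.0 ± 3.27 CPM in mVenus to 23.9 ± 1.58 in p16, 5.12 ± 0.665 in p16/Torin2 and 10.0 ± 0.668 in p21. Its direction in p16 was thus opposite to that of SREBF1 and FASN (-1.47 ± 0.06, edgeR adjusted p = 2.68e-14). SCAP, the escort of SREBPs, had 122 ± 3.91, 121 ± 10.7, 108 ± 5.47 and 144 ± 5.80 CPM in the same order, and INSIG2 had 23.3 ± 1.97, 24.0 ± 1.54, 28.7 ± 2.88 and 20.2 ± 0.306. Neither was called in p16 against mVenus (adjusted p = 0.120 for SCAP and 0.101 for INSIG2).

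The comparison of p16 with mVenus sets cells that expressed mVenus-p16 for 5 days against cells that expressed the fluorescent protein alone. All groups received doxycycline, so p16 itself cannot be told apart from other differences between the lines. The solvent DMSO is stated for the mVenus-p16 cells only. The same limits hold for p21 below. ACSS2, FASN, ELOVL6, SREBF1, SCD and, with the doubt given above, ACACA rose, FADS1 and FADS2 fell, and ACLY and ELOVL5 were not called. That is 6 higher and 2 lower of 10, and 5 and 2 of 9 without ACACA. Over all 14504 genes tested, 63.7% were called in this comparison, 30.9% higher and 32.8% lower. Most genes were thus called here. The median log2 fold change of the 10 was 0.997, against -0.00 over all genes tested. In 7 of the 10 genes the libraries of the groups did not overlap, which held for 66.8% of all genes.

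In p21 against mVenus, more of the genes fell than rose. SCD, FADS1 and FADS2 fell 2.99- to 8.34-fold, ACLY fell 1.6-fold, and FASN and ELOVL6 fell 1.15- and 1.13-fold. SREBF1 and ELOVL5 rose 1.24- and 1.16-fold, ACACA was called 1.91-fold higher with overlapping libraries and the doubt given above, and ACSS2 was not called. The count was 3 higher and 6 lower of 10, and 56.4% of all genes were called (28.2% higher, 28.3% lower). The median of the 10 was -0.19 against -0.00 over all genes, and in 9 of the 10 the libraries did not overlap (65.2% of all genes). This comparison and the one above share the mVenus libraries.

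With Torin2 against p16, 8 of the 10 genes fell and 0 rose. The falls ran from 1.5-fold for ELOVL5 to 15.5-fold for FADS2, and ACACA and FADS1 were not called. At an unadjusted p under 0.05 and with DESeq2 the number that rose was also 0. Over all genes, 59.3% were called in this comparison, 30.3% higher and 29.0% lower. The median of the 10 was -1.06 against 0.02 over all genes, and in 9 of the 10 the libraries did not overlap (62.4% of all genes). Torin2 was given to mVenus-p16 cells only, so an effect tied to p16 cannot be told apart from one in any of these cells. The falls start from the p16 libraries, where 6 of the 10 genes were called higher than in mVenus, so they were also set against mVenus. There, ACLY, SCD, FADS1, FADS2 and ELOVL5 were lower with Torin2 (log2 fold changes of -0.61 to -4.61). FASN and SREBF1 were not called, and ACSS2 and ELOVL6 were called 1.09-fold higher with overlapping libraries. The ACSS2 call (adjusted p = 0.0412) was lost without any 1 of mVenus replicates 1 and 2, Torin2 replicates 2 and 3 and p21 replicate 1 (adjusted p = 0.0507 to 0.182). In this comparison 3 of the 10 were higher and 5 lower, and 67.4% of all genes were called (31.2% higher, 36.1% lower). The libraries did not overlap in 5 of the 10, against 71.3% of all genes. The remaining higher gene was ACACA, whose call was lost without mVenus replicate 1 or 3 or Torin2 replicate 1 (adjusted p = 0.0682 to 0.126). Without mVenus replicate 1 the count of higher genes was 1.

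The direct comparison of p21 with p16 gave 2 of the 10 genes higher (FADS1 and ELOVL5) and 7 lower, with ACACA not called. Over all genes 54.3% were called, 27.2% in each direction, and 9 of the 10 had no overlap of libraries (58.5% of all genes). The largest differences were in SCD, in FADS2 (5.27-fold lower in p21, log2 fold change -2.40 ± 0.09, edgeR adjusted p = 7.19e-15) and in ACSS2 (3.11-fold lower, -1.64 ± 0.05, adjusted p = 1.29e-16). FADS1 was 1.80-fold higher in p21 (0.84 ± 0.11, adjusted p = 2.68e-06). Set against p16/Torin2, the p21 cells had 6 of the 10 genes higher and 3 lower, with 66.5% of all genes called (33.3% higher, 33.2% lower). Libraries did not overlap in 9 of the 10 (70.6% of all genes). The changes were mostly small: FADS2 was 2.93-fold higher and ELOVL5 1.76-fold higher in p21, and SCD differed by 1.14-fold.

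**Figure D4:**
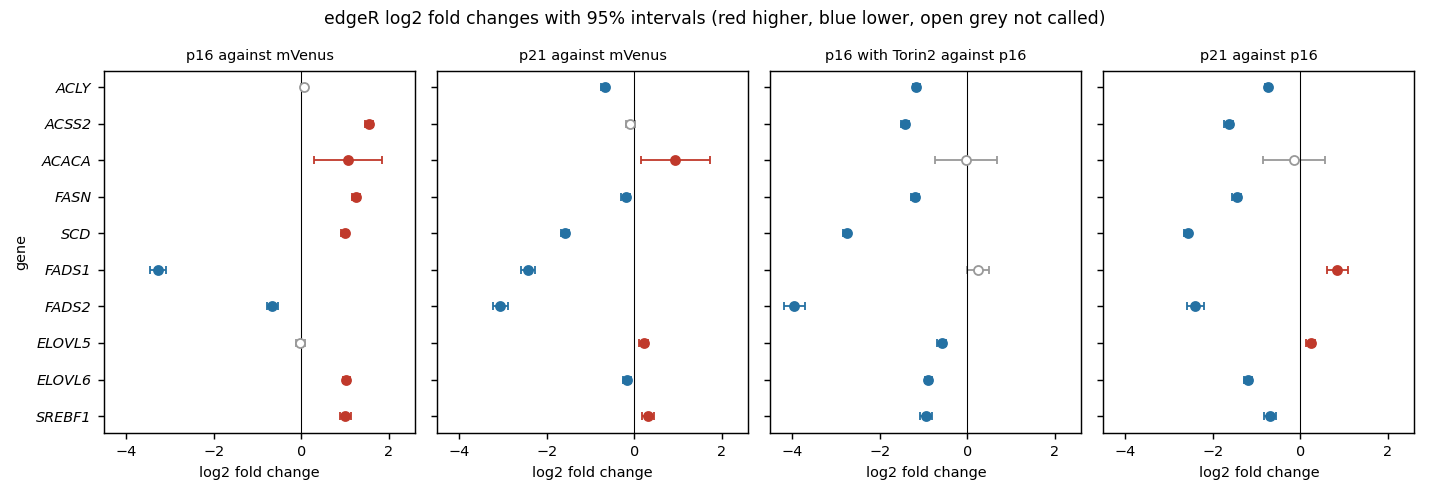
Log2 fold change (horizontal axis) of each of the 10 genes with its 95% interval in 4 comparisons, from the edgeR test over all genes. Red points are called higher, blue lower and open grey not called: in p16/Torin2 against p16, 8 genes are blue and none is red.

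Other genes of lipid metabolism were counted in lists chosen by function. Of the acetyl-CoA, malonyl-CoA and NADPH supply genes, 10 of 12 passed the low-count filter. In p16 5 rose and 3 fell, in p21 3 rose and 4 fell, and with Torin2 1 rose and 7 fell. The called share was 80.0%, 70.0% and 80.0% of the 10, against 63.7%, 56.4% and 59.3% of all genes tested. IDH1, the cytosolic NADPH-making isocitrate dehydrogenase, had 146 ± 0.762 CPM in mVenus, 207 ± 5.59 in p16, 75.6 ± 2.66 in p16/Torin2 and 155 ± 4.96 in p21. It was higher in p16 than in mVenus and lower with Torin2 than in p16, as FASN was. With Torin2, however, IDH1 was far below mVenus, where FASN was near its mVenus level. ME1, malic enzyme, fell in p16 (log2 fold change -0.56 ± 0.05, edgeR adjusted p = 8.98e-09), and ACO1, cytosolic aconitase, fell further (-1.74 ± 0.06, adjusted p = 2.57e-16).

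Among other desaturases and their electron donors, 5 of 7 were tested. SCD5, a second delta-9 desaturase, had 170 ± 5.82 CPM in mVenus, 385 ± 4.18 in p16, 204 ± 6.27 in p16/Torin2 and 204 ± 3.38 in p21. It rose in p16 as SCD did (log2 fold change 1.29 ± 0.04, edgeR adjusted p = 3.33e-17), but with Torin2 and in p21 it stayed above mVenus, where SCD was below. FADS3, the third gene of the FADS family, fell from 262 ± 10.6 CPM to 117 ± 6.29 in p16 (-1.06 ± 0.04, adjusted p = 9.77e-15) and less in p21 (-0.44 ± 0.04, adjusted p = 1.12e-08). The elongation cycle and other elongases gave 2 higher and 6 lower of 9 tested in p16, and 0 higher and 4 lower with Torin2, so that 88.9% and 44.4% were called against 63.7% and 59.3% of all genes. HACD1, a dehydratase of the cycle, fell from 24.5 ± 0.649 CPM to 7.47 ± 0.812 in p16 (-1.61 ± 0.09, adjusted p = 3.68e-12).

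Acyl-CoA synthetases, which activate fatty acids, and acyl-CoA binding genes gave 6 higher and 3 lower of 13 tested in p16, and 2 higher and 7 lower with Torin2, a called share of 69.2% in both that was near those of all genes (63.7% and 59.3%). ACSL5 had the widest changes. It had 5.93 ± 1.07 CPM in mVenus, 33.2 ± 2.67 in p16, 2.94 ± 0.0731 in p16/Torin2 and 1.85 ± 0.0457 in p21. It rose in p16 (log2 fold change 2.58 ± 0.10, edgeR adjusted p = 3.45e-15), fell with Torin2 (-3.54 ± 0.11, adjusted p = 4.31e-16) and was lower in p21 than in mVenus (-1.62 ± 0.16, adjusted p = 3.73e-08), the same directions as SCD. ACSL1 went another way and was highest in p21 (541 ± 7.03 CPM against 322 ± 9.74 in mVenus). In the mitochondrial fatty acid synthesis list, which works apart from FASN, 4 of 5 tested genes rose in p16 and 0 fell, where 30.9% of all genes rose.

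The control genes of SREBP, LXR and ChREBP gave 2 higher and 6 lower of 14 tested in p16, with LPIN1 and MID1IP1 the 2 that rose. The called share, 57.1%, was near the 63.7% of all genes. LPIN1, which encodes a phosphatidate phosphatase that also acts in the nucleus, had 168 ± 8.77 CPM in mVenus, 349 ± 5.53 in p16, 165 ± 6.18 in p16/Torin2 and 410.1 ± 10.7 in p21. NR1H3, the gene of the oxysterol receptor LXR alpha that induces SREBF1 in liver, was low, with 4.31 ± 0.439 CPM in mVenus and 2.99 ± 0.0326 in p16, and rose to 12.9 ± 1.19 with Torin2 (log2 fold change 2.06 ± 0.13 against p16, edgeR adjusted p = 2.27e-11). Its direction with Torin2 was opposite to that of SREBF1.

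Glycerolipid and lipid droplet genes gave 5 higher and 7 lower of 16 tested in p16, 3 and 6 in p21, and 3 and 8 with Torin2. The called share was 75.0%, 56.2% and 68.8%, against 63.7%, 56.4% and 59.3% of all genes. PNPLA3, a lipid droplet hydrolase and SREBP1 target, had 15.1 ± 0.498 CPM in mVenus and 18.7 ± 1.55 in p16. It fell with Torin2 to 7.17 ± 0.929 CPM (log2 fold change -1.42 ± 0.09, edgeR adjusted p = 6.18e-11) and in p21 (-1.18 ± 0.10, adjusted p = 2.68e-09). Fatty acid oxidation genes, which act in the opposite direction to synthesis, gave 8 higher and 7 lower of 22 tested in p16, 8 and 5 in p21, and 5 and 11 with Torin2. Their called share of 68.2% in p16 and 59.1% in p21 was near that of all genes, and with Torin2 it was 72.7%. CPT1A, which brings fatty acids into mitochondria, was higher with Torin2 than in p16 (0.63 ± 0.04, adjusted p = 6.41e-11) and lower in p21 than in mVenus (-0.55 ± 0.04, adjusted p = 6.78e-10).

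The cholesterol genes driven by SREBP2 were the list with the most falls in p21 and with Torin2. Of 22 tested, 6 rose and 10 fell in p16, with a median log2 fold change of -0.07, whereas 0 rose and 21 fell in p21 (median -0.89). With Torin2 against p16 1 rose and 20 fell (median -1.58). The share that fell was 45.5% in p16, 95.5% in p21 and 90.9% with Torin2, against 32.8%, 28.3% and 29.0% of all genes. Among the 6 that rose in p16, HSD17B7, a reductase of sterol synthesis, had a log2 fold change of 0.32 ± 0.09 (edgeR adjusted p = 0.00352). The highest value was that of FDFT1, squalene synthase, chosen here after its values were seen, at 2.44 ± 1.02 (adjusted p = 0.0420). It came from means of 0.589 CPM in mVenus and 2.95 in p16 with overlapping libraries. Why FDFT1 was so low was not tested, so its place among the 6 is in doubt. In p16 ACAT2, which makes acetoacetyl-CoA, fell (-0.93 ± 0.05, edgeR adjusted p = 4.01e-12), as did DHCR7, which ends cholesterol synthesis (-0.78 ± 0.05, adjusted p = 9.94e-12). With Torin2 the gene that rose was PMVK, phosphomevalonate kinase (0.18 ± 0.07, adjusted p = 0.0273), and MVD and DHCR7 fell most (-2.35 ± 0.07 and -2.37 ± 0.06). In p21 the 21 falls included ACAT2 (-2.37 ± 0.06) and FDPS (-1.72 ± 0.04). Counting used no strand, and 52.3% of the exonic bases of ACAT2 and 18.6% of those of FDPS are shared with another gene.

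**Figure D5:**
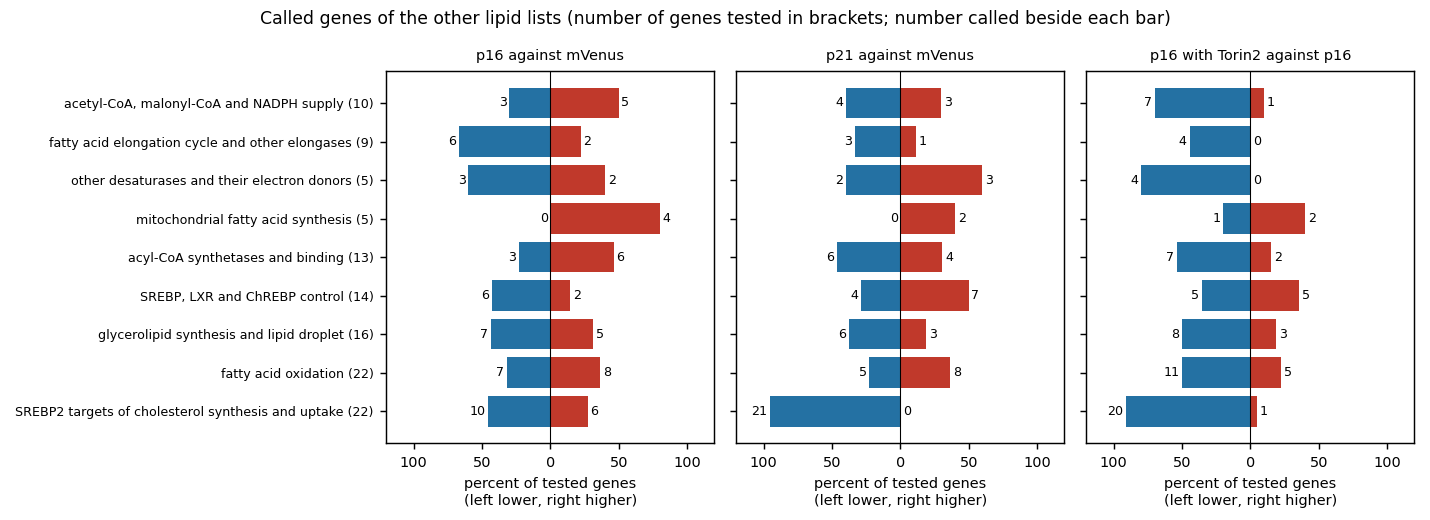
Percent of tested genes of 9 lipid lists called higher (red, to the right) or lower (blue, to the left) in 3 comparisons, with the number of genes beside each bar and the number tested in brackets. The cholesterol list has 21 of 22 genes lower in p21 and 20 lower with Torin2, and 6 higher and 10 lower in p16.

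The genes whose levels followed FASN, SCD and FADS1 most closely were found by Pearson's r of log2 CPM over the 12 libraries among 10261 genes of at least 5 mean CPM. The 12 points form 4 groups of 3, so r mainly reflects the group means, and no p is given. For FASN these were EZR (0.990), CTNNBIP1 (0.990) and CLDN7 (0.990). CLDN7, a claudin of tight junctions, had 290.2 ± 4.81 CPM in mVenus, 445 ± 31.6 in p16, 292 ± 20.5 in p16/Torin2 and 262 ± 14.1 in p21. For SCD they were IGFL1 (0.994), LAPTM4B (0.984) and PPIB (0.982). IGFL1 had 31.4 ± 1.90, 97.2 ± 6.44, 4.11 ± 0.845 and 4.41 ± 1.204 CPM in the same order, a wider range than SCD. LAPTM4B had 149 ± 1.48, 163 ± 3.68, 121 ± 1.66 and 120 ± 4.01 CPM. PPIB had 98.5 ± 1.18, 97.9 ± 2.97, 75.7 ± 0.982 and 78.0 ± 2.26 CPM. Both had a far narrower range than SCD, and PPIB was not higher in p16 than in mVenus in CPM. For FADS1 they were PCNA (0.994), GMNN (0.992) and FERMT2 (0.989). PCNA, the clamp of DNA polymerase, had 111 ± 5.06 CPM in mVenus, 28.5 ± 2.63 in p16, 32.5 ± 2.26 in p16/Torin2 and 39.2 ± 0.606 in p21, the same order of groups as FADS1 over a smaller range. GMNN, geminin, a licensing inhibitor present in cycling cells, had 31.3 ± 1.18, 7.57 ± 0.581, 8.79 ± 0.777 and 10.4 ± 0.803 CPM.

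The labelled cell type was checked against marker genes. All 10 markers of the mammary epithelial list were detected, among them KRT5, KRT14, CDH1 and EPCAM. The list does not single out basal cells. Its members summed to 9335 to 9793 CPM in mVenus, 19103 to 19932 in p16, 13955 to 14234 in p16/Torin2 and 11714.5 to 12143 in p21. This list was thus highest in p16, as were ACSS2, FASN, ELOVL6, SREBF1 and SCD but not ACLY. Its part in the levels of these genes was not tested. Adipocyte markers, of a cell type rich in these enzymes, summed to 0.833 to 1.53 CPM over all libraries, and ADIPOQ, FABP4 and LPL of the 8 were at 0 in all 12. Hepatocyte markers (7 of 7 seen in at least 1 library) summed to 7.97 to 10.8 CPM in mVenus, 4.67 to 5.42 in p16, 1.17 to 1.6 in p16/Torin2 and 3.504 to 5.42 in p21. Fibroblast markers summed to 21.03 to 21.5, 6.74 to 7.17, 5.61 to 5.85 and 109.5 to 117 CPM in the same order. Leukocyte markers summed to 56.7 to 60.7, 111 to 123, 51.6 to 55.5 and 107 to 110.5 CPM, with CD3E and TYROBP of the 7 at 0 in every library, and endothelial markers to 4.94 to 6.03, 22.4 to 27.0, 7.57 to 10.3 and 2.21 to 3.37 CPM. The leukocyte sum was high in p16 and p21, the endothelial sum in p16 and the fibroblast sum in p21. Members of a list did not all move alike. Against mVenus, 2 of 3 tested leukocyte genes rose and 1 fell, both in p16 and in p21. Of 3 tested fibroblast genes, 1 rose and 1 fell in p21. Of 3 tested endothelial genes, 2 rose and 0 fell in p16. Over all genes tested, 63.7% were called in p16 (30.9% higher, 32.8% lower) and 56.4% in p21 (28.2% higher, 28.3% lower). Lists of 3 tested genes are too small to be set against these shares. These sums moved with the groups, and their part in the levels of the 10 genes was not tested.

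The authors' deposited tables, which hold 3 of these comparisons, gave the same call as the edgeR test for 27 of 30 values of the 10 genes. In the authors' deposited table ACACA was not called in p16 (adjusted p = 0.0575) or p21 (adjusted p = 0.129), and ACLY was called in p16 at a log2 fold change of 0.08 (adjusted p = 0.0281). Log2 fold changes from the authors' deposited table and the edgeR test differed by 0.0195 at most for the 9 genes other than ACACA.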

How the data were processed

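The authors deposited counts of reads for each of the 12 libraries. Per the file headers, featureCounts 1.6.3 assigned reads to exons by gene name over GENCODE 29, with no strand option. The submitters' processing notes name HISAT2, Subread, FastQC 0.11.3, DESeq2 and the build GRCh38.p7, and the library kit keeps strand per the labels' protocols. The headers set no option for reads that overlap several genes. The authors also deposited tables with log2 fold changes and adjusted p-values for 3 comparisons, used as a check.

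The 10 genes, the lists and the tests were chosen with earlier results of these data known. CPM used all assigned counts, and TPM the length column. After filterByExpr (14504 genes) and TMM scaling (factors 0.967 to 1.05), genes were tested in a single edgeR 4.0.16 quasi-likelihood fit of all 12 libraries (R 4.3.3, 8 residual degrees of freedom), two-sided, with Benjamini-Hochberg adjustment over all genes. The code was tested on simulated data. DESeq2 1.42.0, other scalings, no filter, a replicate block and each library left out were alternatives. TMM and CPM scales differ slightly, and the factors were highest in mVenus, so log2 values against mVenus lie above the changes in CPM. ACLY and ELOVL5 have lower CPM in p16 than their log2 values show. With Torin2, FASN and SREBF1 had slightly lower CPM than mVenus but positive log2 values. ACSS2 (78.6 against 75.8 CPM) and ELOVL6 (132.7 against 127.0) differed less in CPM than the 1.09-fold of the test. The p-values measure the spread between these cultures.

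Named genes were the 10 and SREBF2, SCAP, INSIG1 and INSIG2. To these came, per list and comparison, up to 2 rises and 2 falls with the largest change among genes called, at 5 CPM or more and without overlap, and the 3 genes closest to FASN, SCD and FADS1. Only some of these are described, and a gene that the rule named is not reported here.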

Additional observations from a re-analysis of the deposited data

Results flagged for a closer look

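In 3 of the 10 genes, the p16 and p21 groups differed from mVenus in opposite directions, each past the test. The direct edgeR comparison of p21 with p16 was called as well. On the log2 scale FASN changed by 1.26 in p16 and by -0.20 in p21, and the difference of p21 from p16 was -1.46 ± 0.04. SCD changed by 0.99 in p16 and by -1.58 in p21, with a difference of -2.57 ± 0.04. ELOVL6 changed by 1.03 and by -0.17, with a difference of -1.20 ± 0.04. In all 3, every p16 library was above every mVenus library and every p21 library below. The p21 changes of FASN and ELOVL6 against mVenus were small. Their absolute log2 change was larger than in only 38.7% and 33.6% of the genes tested, and that of SCD than in 93.9%. The comparisons with mVenus share its 3 libraries. In the single fit, the direct log2 value is the difference between the values against mVenus. With opposite signs it is larger than either, so its call adds no separate support. The mVenus libraries also enter the spread and scaling of that fit.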

How the results depend on the processing

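Each value of the 10 genes in the 6 comparisons was recomputed under 18 settings. Of 1080 values, 1048 kept direction and side of the threshold, 21 lost their call, 4 gained one and 7 changed sign. None of the 7 was called. ELOVL5 in p16 against mVenus became 0.0248 with no low-count filter and ran from -0.0678 to 0.000617 with a library left out, the latter without p16 replicate 1. ACACA with Torin2 against p16 became 0.00533 with the replicate block and ran from -0.346 (without p16 replicate 1) to 0.465 (without p16 replicate 2). It was 0.0753 without Torin2 replicate 3. ACACA in p21 ran from -0.451 to 0.361 against p16 (without p16 replicates 1 and 2) and from -0.218 to 0.0411 against p16/Torin2 (without Torin2 replicates 3 and 1). The losses were all in ACACA (15) and ACSS2 with Torin2 against mVenus (6), and the gains in ACLY (2) and FASN (2). With DESeq2 the ACACA call in p16 was lost (adjusted p = 0.0845). For other named genes 3351 of 3384 values held, 26 lost a call, 7 gained one and 0 changed sign. Over the settings that leave out a library, 5 to 7 genes were higher in p16 (5 to 6 with ACACA not counted, the 6 without p16 replicate 3, where ACLY was called) and 2 to 3 in p21, and 1 to 3 with Torin2 against mVenus. Summed levels moved by more than 1 SD in mVenus with TMM library sizes (2184 CPM), and in all groups without mitochondrial transcripts in the total: 2368 CPM in mVenus, 3959 in p16, 1624 in p16/Torin2 and 1668 in p21. Replicate numbers did not pair the samples: 0 of 18 same-numbered pairs had a correlation of deviations over 0.1 (-0.0822 to 0.0754), and 5 of 12 libraries correlated best with their own number. With the number as a block, 6 of the 10 genes were higher and 2 lower in p16, 3 and 6 in p21 and 0 and 8 with Torin2 against p16, and ACSS2 lost its call with Torin2 against mVenus (adjusted p = 0.0572). ACACA rests on few counts, with 16 in its lowest library, mVenus replicate 3. That library held 17572677 counts in all, and why ACACA was low in it was not tested.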
